A study of Mus musculus with 6 samples.

Results

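Hepcidin, the peptide hormone that limits iron entry into the blood, was followed together with the genes that set its transcription in liver. The set holds 10 genes of 13587 tested: the hepcidin genes Hamp and Hamp2, the iron sensors Hfe and Tfr2, the co-receptor gene Hjv (hemojuvelin, also named Hfe2), its protease gene Tmprss6, the ligand gene Bmp6, and the BMP-SMAD target genes Smad7, Id1 and Atoh8. Each was found on the array by its RefSeq transcript and had 1 probe, and all 10 probes were well above background on all 6 arrays. The genes were chosen by their place in this pathway and with their measured PVBL against sham differences on these same arrays in view, so those differences are given as a description and without a test.

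The PVBL group held 3 liver samples from male C57BL/6J mice whose left portal vein branch had been ligated, and the right lobe was collected 3 days later as regenerating liver. The sham group held 3 samples from male C57BL/6J mice, also collected 3 days after a sham operation. Total RNA was labelled with Cy3 and each sample was hybridised to its own single-colour Agilent array. Samples carry a replicate number but no statement of separate animals or of pools. The p-values below therefore reflect only sample-to-sample spread, part of which may be technical.

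Hepcidin is made mainly by hepatocytes and binds ferroportin, the iron exporter of gut cells and macrophages, which is then degraded. In mouse liver, sinusoidal endothelial cells release BMP6, and on hepatocytes BMP receptors with hemojuvelin as co-receptor phosphorylate SMAD proteins that switch on hepcidin, Id1, Smad7 and Atoh8. Interleukin-6 acts on the same gene through STAT3, and the protease matriptase-2, from Tmprss6, cleaves hemojuvelin and so restrains the pathway.

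Levels are given as the probe's processed signal divided by that array's 75th percentile signal, and log2 differences are PVBL minus sham on this scale. Levels of different probes are not compared, since probes differ in brightness. The signal at the 75th percentile was 330.6 to 407 units on PVBL arrays and 203.5 to 314.7 units on sham arrays, and 48.1% to 53.7% of probes were well above background on an array. PVBL 3 lay apart from PVBL 1 and PVBL 2 on the second principal component, which held 11.9% of the variance. All arrays lay on 1 slide, with PVBL in row 2 and sham in row 1, so an effect of the row cannot be told apart from one of the surgery. In limma with Benjamini-Hochberg adjustment, 4475 genes (32.9%) had an adjusted p under 0.05, 2053 higher (15.1%) and 2422 lower (17.8%) in PVBL. This split was 2639 higher and 1559 lower when arrays were centred on their median, 2332 and 2162 after quantile normalization, and 1937 and 253 when they were centred on spike-in probes. The median difference over all genes was -0.10, and 0.31 with spike-in centring, so a difference can also be read against the bulk of genes. With spike-in centring the standard error (SE) was 0.37 for every axis gene, wider than on the main scale for all but Hamp2. A call lost with that centring therefore need not mean a smaller difference. In bulk liver RNA, fewer cells of a type and less RNA per cell cannot be told apart.

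Both hepcidin genes were far lower in PVBL livers than in sham livers, and the sequence just before each gene is shown first because hepcidin promoters are known to hold elements for SMAD and STAT3 proteins. The stretches run from 150 bases before the annotated gene start to the last base before it, 5′ to 3′, from RefSeq on build GRCm38.p6. Both genes lie on the minus strand of chromosome 7, Hamp stretch at chr7:30944030-30944179 and Hamp2 stretch at chr7:30924182-30924331, with 18186 bases between the genes. Capitals mark GGCGCC, the core of the BMP-responsive element described near the start of hepcidin genes, TTCNNNGAA, the form of a STAT element, and TGAGTCA, the form of an AP-1 element.
Hamp: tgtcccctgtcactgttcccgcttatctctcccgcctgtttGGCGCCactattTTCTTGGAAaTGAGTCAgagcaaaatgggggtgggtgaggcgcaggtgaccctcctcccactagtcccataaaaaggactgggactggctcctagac
Hamp2: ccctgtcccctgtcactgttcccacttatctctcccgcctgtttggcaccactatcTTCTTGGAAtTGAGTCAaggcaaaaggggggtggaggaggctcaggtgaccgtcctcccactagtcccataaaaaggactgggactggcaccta

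The Hamp and Hamp2 stretches were identical at 135 of 147 aligned bases (91.8%), with 12 substitutions. One of them, G45A, counted from 1 at the 5′ end of the printed Hamp stretch with the Hamp base first, falls inside GGCGCC, 106 bases before the Hamp start, and Hamp2 has no GGCGCC in its 250-base window. In Hamp the GGCGCC match covers bases 109 to 104 before the start, TTCNNNGAA 97 to 89 and TGAGTCA 87 to 81. In Hamp2 the TTCNNNGAA match covers bases 94 to 86 before the start and TGAGTCA 84 to 78. Each hepcidin window also holds 2 matches to the E-box form CANNTG, at bases 236 to 231 and 55 to 50 in Hamp and at 233 to 228 and 52 to 47 in Hamp2.

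These motifs were searched on both strands in the 250 bases before the start, and the matches are a description of the letters, not of binding. Of 32851 such RefSeq windows in the mouse, 9.59% held GGCGCC, 7.02% TTCNNNGAA, 4.46% TGAGTCA and 66.2% CANNTG. Among the axis genes, windows were matched for Hamp, Hamp2, Hfe, Bmp6, Atoh8 and Tfr2, the last with 3 windows, making 8. Chromosome 18, where Smad7 lies, was left out of the search among axis genes. Hjv, Tmprss6, Smad7 and Id1 had no window in this search, so the counts of matches do not cover them. GGCGCC was in 1 of the 8 (Hamp), TTCNNNGAA in 2 (Hamp and Hamp2), and TGAGTCA in 3, the other being that of Hfe at bases 67 to 61 before the start. CACGTG, the E-box form bound by USF proteins, which every CANNTG search also finds, was in 2 of the 8, at bases 230 to 225 of Atoh8 and 127 to 122 of Bmp6, and in 6.02% of all windows.

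**Figure D1:**
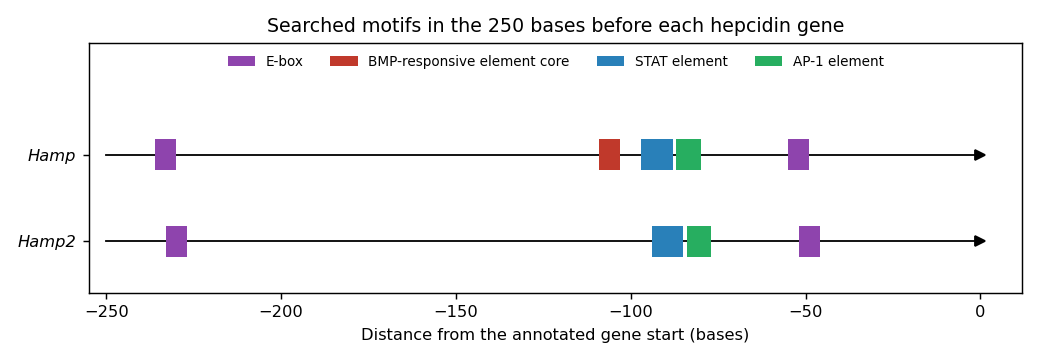
Positions of the searched motifs in the 250 bases before the annotated start of Hamp (upper line) and Hamp2 (lower line); the horizontal axis is the distance from the start in bases and each coloured block is 1 match. The GGCGCC block at 109 to 104 bases before the start is drawn for Hamp and has no counterpart in Hamp2, while the other blocks lie 3 bases closer to the start in Hamp2.

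Hamp, which encodes the iron-regulatory hormone itself, had levels of 48.8, 43.3 and 37.2 times the 75th percentile in PVBL 1 to 3, against 155.9, 272.3 and 170.5 in sham 1 to 3. Every PVBL value lay below every sham value, and sham 2 stood above the other two sham arrays. On the log2 scale Hamp averaged 5.42 ± 0.20 in PVBL and 7.60 ± 0.43 in sham (SD, n = 3 each), a difference of -2.18 ± 0.23 (SE) or 4.52-fold lower. Of all genes tested, 0.412% had a more negative difference.

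Hamp2 encodes a second mouse hepcidin that, unlike the Hamp product, did not act on iron in transgenic mice. Its levels were 1.63, 0.933 and 0.719 times the 75th percentile in PVBL 1 to 3, against 24.3, 53.3 and 27.4 in sham 1 to 3. On the log2 scale the 2 groups were separated by more than the range within either of them. The log2 means were 0.043 ± 0.60 in PVBL and 5.04 ± 0.61 in sham (SD, n = 3 each), and the difference of -5.00 ± 0.39 (SE) corresponds to 31.9-fold lower. Among the 12577 genes well above background on all 6 arrays, Hamp2 had the most negative difference (rank 1) and Hamp stood at rank 35.

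The difference of Hamp2 was larger than that of Hamp. The log2 ratio of the Hamp2 to the Hamp signal was -4.91, -5.54 and -5.69 in PVBL 1 to 3, against -2.68, -2.35 and -2.64 in sham 1 to 3. Only the change of this ratio can be read, and it did not overlap between groups, with a mean of -5.38 ± 0.42 in PVBL and -2.56 ± 0.18 in sham (SD, n = 3 each), a difference of -2.82. The order of the arrays was the same for both genes: PVBL 1 was the highest and PVBL 3 the lowest PVBL array, and sham 2 was the highest and sham 1 the lowest sham array. The transcripts are near-identical, and how far each probe also binds the other gene's transcript was not tested.

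Hepcidin varied more between sham arrays than most genes did. The sham SD of Hamp was larger than that of 93.5% of genes tested and the sham SD of Hamp2 larger than that of 97.2%, against a median sham SD of 0.147 over all genes. In PVBL livers the SD of Hamp was larger than that of 46.7% of genes and the SD of Hamp2 larger than that of 92.7%, the median being 0.206. Leaving out 1 array at a time, the difference of Hamp ranged from -2.33 (without sham 1) to -1.93 (without sham 2), and that of Hamp2 from -5.33 (without PVBL 1) to -4.65 (without sham 2).

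**Figure D2:**
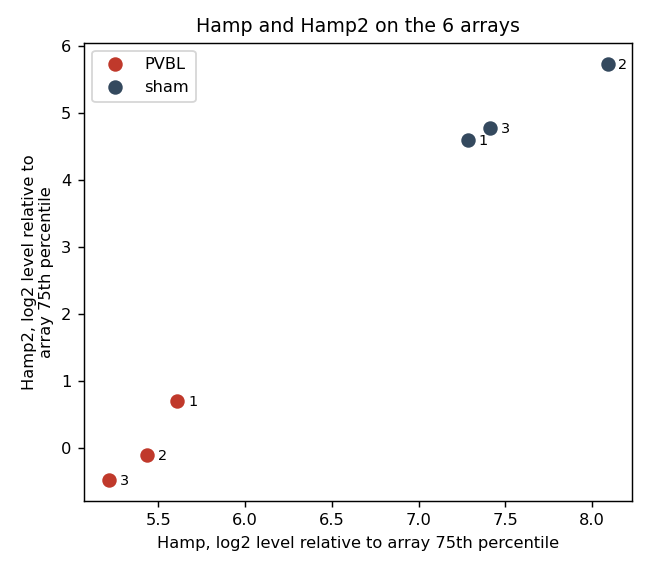
Log2 level of Hamp (horizontal axis) and Hamp2 (vertical axis), each relative to the array's 75th percentile; each point is 1 array, red for PVBL and blue for sham, with the replicate number beside it. The PVBL arrays lie at 5.22 to 5.61 for Hamp and -0.48 to 0.70 for Hamp2, below the sham arrays at 7.29 to 8.09 and 4.60 to 5.74.

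The genes that sense transferrin iron on the hepatocyte were lower by smaller amounts. Tfr2, transferrin receptor 2, which is stabilised by iron-loaded transferrin, had levels of 111.5, 108.8 and 70.3 in PVBL 1 to 3, against 198.4, 166.5 and 128.3 in sham 1 to 3. The groups did not overlap, and PVBL 3 lay well below the other two PVBL arrays. Its log2 difference was -0.77 ± 0.24 (SE, n = 3 per group), 1.71-fold lower, and 9.19% of genes had a more negative one. Without PVBL 3 it was -0.56 and without sham 3 it was -0.94. After quantile normalization the difference of Tfr2 was -0.55 and the groups overlapped.

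Hfe, mutated in the commonest form of hereditary haemochromatosis, encodes a partner of the transferrin receptors. It had levels of 11.1, 13.3 and 12.8 in PVBL 1 to 3, against 16.5, 14.2 and 16.6 in sham 1 to 3. The groups did not overlap, but the closest pair, PVBL 2 and sham 2, lay near each other. The log2 difference of -0.34 ± 0.13 (SE, n = 3 per group) is 1.27-fold lower, 30.5% of genes had a more negative one, and with spike-in centring it was 0.07, the opposite sign.

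At the hemojuvelin step the protease gene was lower in PVBL on this scale, while the groups overlapped for the co-receptor gene. Tmprss6 had levels of 115.3, 109.2 and 94.2 in PVBL 1 to 3, against 170.5, 158.3 and 159.2 in sham 1 to 3. All PVBL values were below all sham values, and the sham arrays lay close together. The log2 difference was -0.62 ± 0.13 (SE, n = 3 per group), 1.54-fold lower, and it was -0.38 after quantile normalization and -0.21 with spike-in centring.

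Hjv had levels of 2.89, 2.15 and 3.56 in PVBL 1 to 3, against 2.51, 2.31 and 2.29 in sham 1 to 3. The groups overlapped, PVBL 2 being the lowest and PVBL 3 the highest of all 6 arrays. The difference was 0.25 ± 0.19 (SE, n = 3 per group), and it was 0.075 without PVBL 3 and 0.44 without PVBL 2, where the groups no longer overlapped.

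Bmp6, the ligand whose loss causes iron overload in mice, gave a dim signal. Its levels were 0.370, 0.152 and 0.250 in PVBL 1 to 3, against 0.370, 0.461 and 0.308 in sham 1 to 3. PVBL 1 lay among the sham values, and PVBL 2 and PVBL 3 lay below all of them. The difference was -0.63 ± 0.32 (SE, n = 3 per group), with a PVBL SD larger than that of 93.6% of genes, and it was -0.94 without PVBL 1 and -0.30 without PVBL 2. With normexp background correction it was -0.42 and the groups did not overlap, which was also the case without PVBL 1 and without sham 3 (-0.77).

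The 3 target genes of BMP-SMAD signalling differed in sign, with Smad7 and Atoh8 lower and Id1 higher in PVBL. Smad7, the inhibitory SMAD that feeds back on the pathway, had levels of 0.699, 0.588 and 0.983 in PVBL 1 to 3, against 1.39, 1.38 and 1.28 in sham 1 to 3. All PVBL values were lower, with PVBL 3 the nearest to sham. The log2 difference was -0.87 ± 0.20 (SE, n = 3 per group), 1.82-fold lower.

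Atoh8, a helix-loop-helix transcription factor reported to act on the hepcidin promoter, had levels of 0.586, 0.395 and 0.436 in PVBL 1 to 3, against 0.902, 1.05 and 0.963 in sham 1 to 3. The groups were well separated. The log2 difference was -1.06 ± 0.17 (SE, n = 3 per group), 2.08-fold lower, and 4.32% of genes had a more negative one. With normexp background correction, which adds an offset that compresses dim genes, it was -0.83.

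Id1, an inhibitor of helix-loop-helix factors and a classical BMP target in hepatocytes and endothelial cells, was higher. Its levels were 3.37, 3.21 and 6.11 in PVBL 1 to 3, against 1.79, 3.01 and 2.22 in sham 1 to 3. All PVBL values lay above all sham values, but PVBL 2 and sham 2 were close, and PVBL 3 was far above the other two PVBL arrays. The log2 difference was 0.82 ± 0.30 (SE, n = 3 per group), 1.77-fold higher, and 0.52 without PVBL 3. A lower value was seen for 90.6% of genes.

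**Figure D3:**
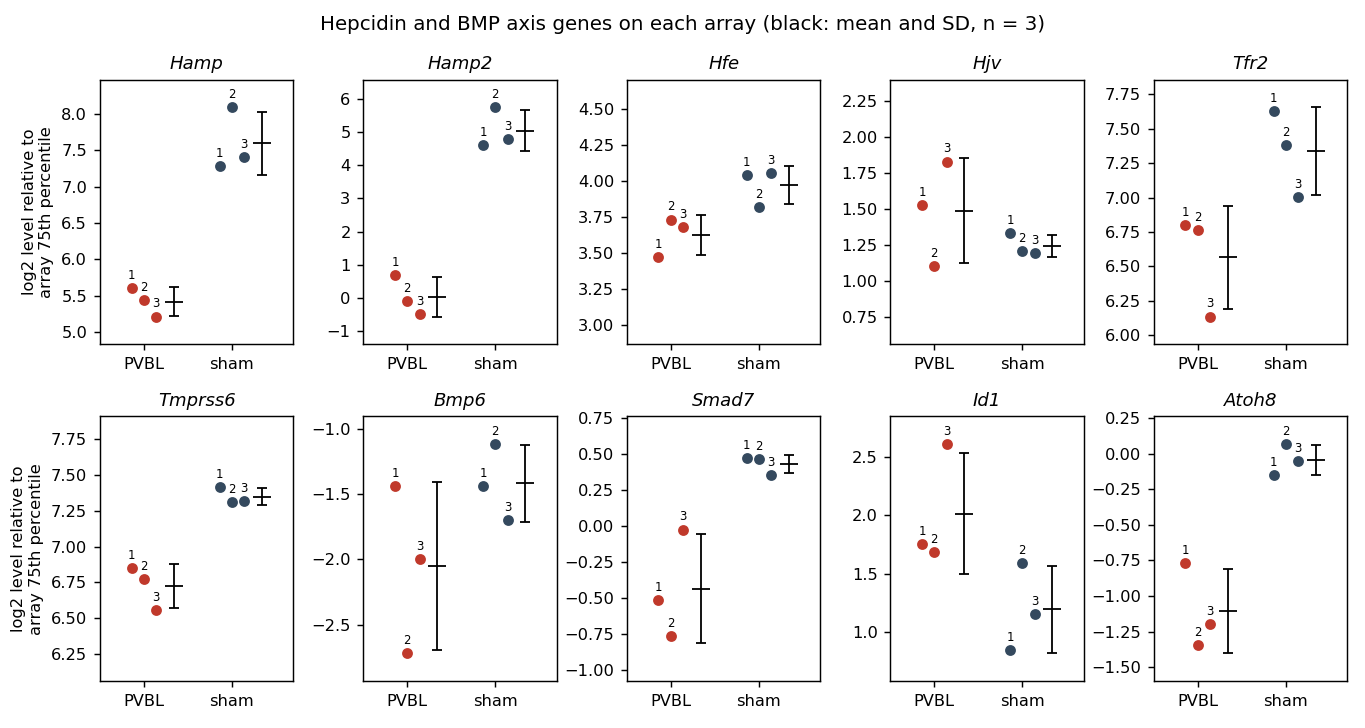
Log2 level of each of the 10 axis genes relative to the array's 75th percentile, 1 panel per gene and each with its own vertical axis; points are arrays (red PVBL, blue sham) with replicate numbers, and the black bar is the mean with SD (n = 3). All PVBL points lie below all sham points for Hamp, Hamp2, Hfe, Tfr2, Tmprss6, Smad7 and Atoh8, above them for Id1, and overlap them for Hjv and Bmp6.

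Over the 10 genes, all PVBL values lay below all sham values in 7 (29.1% of all genes tested did so), above them in 1 (22.3% of all genes), and the groups overlapped in 2. A negative difference was seen in 8 of the 10 and a positive one in Hjv and Id1. The median difference of the 10 genes was -0.70, and that of all genes -0.10. These counts restate the choice of the genes and nothing is read from them.

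Where arrays were centred on spike-in probes, the 7 became Hamp and Hamp2 alone, with differences of -1.76 and -4.58, and Id1 stayed above sham at 1.24. The other differences were then -0.64 for Atoh8, -0.45 for Smad7, -0.36 for Tfr2, -0.22 for Bmp6, -0.21 for Tmprss6, 0.07 for Hfe and 0.66 for Hjv. Relative to the median over all genes, which removes this shift, the differences were -2.07 for Hamp, -4.90 for Hamp2, -0.96 for Atoh8, -0.77 for Smad7, -0.67 for Tfr2, -0.53 for Bmp6, -0.52 for Tmprss6, -0.24 for Hfe, 0.35 for Hjv and 0.92 for Id1.

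**Figure D4:**
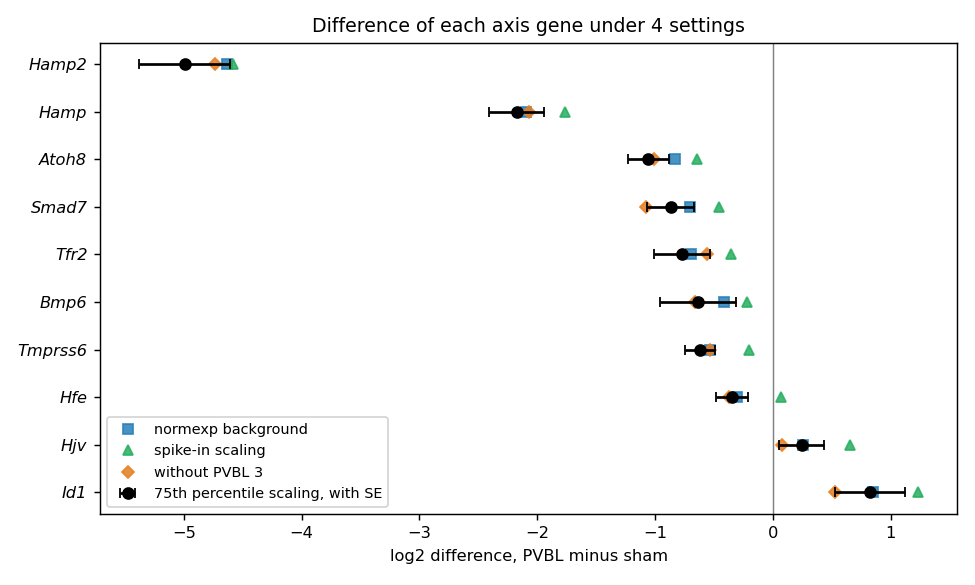
Log2 difference, PVBL minus sham, of each axis gene (rows) under 4 settings; black circles are values scaled to the 75th percentile with SE (n = 3 per group), blue squares use normexp background correction, green triangles are centred on spike-in probes, and orange diamonds leave out PVBL 3. Hamp2 and Hamp stay below -1.7 in all 4, Hfe moves to 0.07 with spike-in centring, and Id1 lies between 0.52 and 1.24.

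The genes whose profile over the 6 arrays was most like that of Hamp were Klf1, Izumo4 and Pcsk4, by the root mean square difference of log2 values centred on each gene's mean (0.225, 0.230 and 0.232, among 12567 other genes well above background on all arrays). Their differences were -1.98, -1.78 and -1.89. For Hamp2 the nearest were Bmf, Gm4956 and Ccl21a, at distances of 0.776, 0.955 and 0.955 and with differences of -3.83, -3.68 and -3.13. The distance includes the size of the difference, and that of Hamp2 was the most negative among these genes. Its larger distances therefore do not show how closely other genes followed it. For Id1 they were Prkar2b, Slc43a2 and Anxa3, at 0.134, 0.149 and 0.159, with differences of 0.68, 1.02 and 0.76.

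Around the axis, 6 lists of other pathway genes held 100 genes that were tested, of which 34 had an adjusted p under 0.05 in limma, a share near the 32.9% of all genes tested, so the count says nothing particular about these genes. Beside the counts by direction, 15.1% of all genes were called higher and 17.8% lower. Some genes stand in more than 1 list. Among ligands, antagonists and modulators of BMPs, 8 of 21 rose (38.1%, against 15.1% of all genes) and 2 fell (9.52%, against 17.8%), with a median of -0.05. Gdf15, a stress-induced member of the TGF-beta superfamily, had levels of 8.61, 14.1 and 15.9 in PVBL 1 to 3, against 1.31, 1.03 and 2.07 in sham 1 to 3, a rise of 3.14 ± 0.32 on the log2 scale (SE, n = 3 per group; adjusted p = 0.000739). The BMP ligand gene Bmp7 rose by 1.40 ± 0.18 (adjusted p = 0.0021) and Fstl1, encoding a secreted follistatin-like protein, by 1.35 ± 0.23 (adjusted p = 0.00544). Bmper, a BMP-binding protein gene, passed the background threshold on 3 of 3 PVBL arrays and 0 of 3 sham arrays, at least 3.52-fold higher. It was tested only because its PVBL signal passed that threshold, so its place among the 8 supports nothing, and with normexp it was at 0.27 and not called.

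Not all ligand genes passed the test. Bmp2, which endothelial cells also release, had a difference of -0.88 (adjusted p = 0.0635), and Erfe, the erythroid hormone gene that restrains hepcidin, had -1.04 (adjusted p = 0.166) with 1 PVBL array and 3 sham arrays well above background.

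Of 17 tested genes for BMP receptors and SMAD proteins, none rose and 4 fell (23.5%, near the 17.8% of all genes called lower), with a median of -0.36. They were the receptor genes Acvr2b (-0.78 ± 0.17, adjusted p = 0.0152) and Bmpr2 (-0.56 ± 0.14, adjusted p = 0.0217), the inhibitory Smad6 (-0.61 ± 0.16, adjusted p = 0.0237) and the phosphatase gene Ppm1a (-0.40 ± 0.13, adjusted p = 0.0482). All 4 calls depended on single arrays and on the scaling. Acvr2b missed the threshold without sham 1 (-0.66) or sham 2 (-0.73), Bmpr2 without PVBL 1, PVBL 2, sham 1 or sham 2 (-0.57 to -0.48), Smad6 without any array but PVBL 3 (-0.63 to -0.52) and Ppm1a likewise (-0.44 to -0.33). With spike-in centring Acvr2b, Bmpr2 and Smad6 were at -0.36, -0.15 and -0.20 and were not called, and Ppm1a was at 0.012.

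Of 11 other BMP-SMAD target genes, 1 rose (9.09%, against 15.1% of all genes) and 5 fell (45.5%, against 17.8%), with a median of -0.56. Id2, of the same family as Id1, had levels of 15.0, 15.4 and 19.5 in PVBL 1 to 3, against 37.8, 36.1 and 27.9 in sham 1 to 3. It fell by 1.03 ± 0.17 (adjusted p = 0.00551), where Id1 was higher, and its difference was -0.61 and not called with spike-in centring. Smad6 also stands in this list, and Msx2, a homeobox gene, fell by 0.56 ± 0.14 (adjusted p = 0.0213). That call was lost without PVBL 1, sham 1 or sham 3 (-0.57 to -0.50), without the background filter, and with spike-in centring (-0.15). Hes1, also a Notch target, rose by 1.06 ± 0.23 (adjusted p = 0.0134) and missed the threshold with normexp (0.53) and without sham 1 (0.92). Id3 had a difference of -0.10 (adjusted p = 0.708).

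Of 23 tested genes of the interleukin-6 input and the acute phase, 2 rose (8.70%, against 15.1% of all genes) and 7 fell (30.4%, against 17.8%), with a median of -0.25. Lcn2, encoding an iron-siderophore binding protein, rose by 2.82 ± 0.56 (adjusted p = 0.0103) and the ferrireductase gene Steap4 by 0.89 ± 0.18 (adjusted p = 0.00986). Crp, Fga and Itih4, genes of plasma proteins, fell by 0.91 ± 0.19, 0.87 ± 0.18 and 0.78 ± 0.16 (adjusted p = 0.0121, 0.0117 and 0.0111). Without sham 1 Crp (-0.80) and Fga (-0.79) missed the threshold, and the other probe of Fga was at 0.36. Itih4 missed it after quantile normalization (-0.43), and all 3 genes did with spike-in centring. Il6 itself (-0.04, adjusted p = 0.938), Stat3 (-0.34, adjusted p = 0.248) and Socs3 (-0.09, adjusted p = 0.903) did not pass.

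Of 13 tested genes for transcription factors that bind the hepcidin promoter, none rose and 1 fell (7.69%, against 17.8% of all genes). Cebpa, a liver transcription factor gene, had levels of 22.9, 18.3 and 14.3 in PVBL 1 to 3, against 35.3, 38.8 and 36.8 in sham 1 to 3. The groups did not overlap, and the difference was -1.03 ± 0.18 (adjusted p = 0.00704), or -0.61 and not called with spike-in centring.

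Of 22 tested genes of iron handling outside the axis, 4 rose (18.2%, near the 15.1% of all genes) and 2 fell (9.09%, against 17.8%), with a median of -0.19. Tfrc, transferrin receptor 1, through which cells take up iron, had levels of 1.54, 2.02 and 1.26 in PVBL 1 to 3, against 0.614, 0.548 and 0.610 in sham 1 to 3. It rose by 1.42 ± 0.19 (adjusted p = 0.00225), and its other probes were at 1.34 and 2.19. The haem transporter gene Slc48a1 rose by 0.90 ± 0.18 (adjusted p = 0.0111). Steap3, an endosomal ferrireductase gene, and Pcbp1, an iron chaperone gene, rose by 0.56 ± 0.14 and 0.45 ± 0.13 (adjusted p = 0.0253 and 0.0351), and Slc11a2, the iron importer DMT1, fell by 0.55 ± 0.12 (adjusted p = 0.0138). Steap3 missed the threshold without PVBL 1, sham 2 or sham 3 (0.50 to 0.56), Pcbp1 without any array but PVBL 3 (0.38 to 0.48) and Slc11a2 without sham 2 (-0.55). With spike-in centring Slc11a2 was at -0.13, Steap3 at 0.97 and Pcbp1 at 0.86, none of them called. The differences of Steap3 and Pcbp1 were thus larger there, and the SE of Pcbp1 was 0.37. The other probes of Slc11a2 and Steap3 were at -0.13 and 0.30. Slc40a1, the ferroportin gene and target of hepcidin, had a difference of -0.26 (adjusted p = 0.34).

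**Figure D5:**
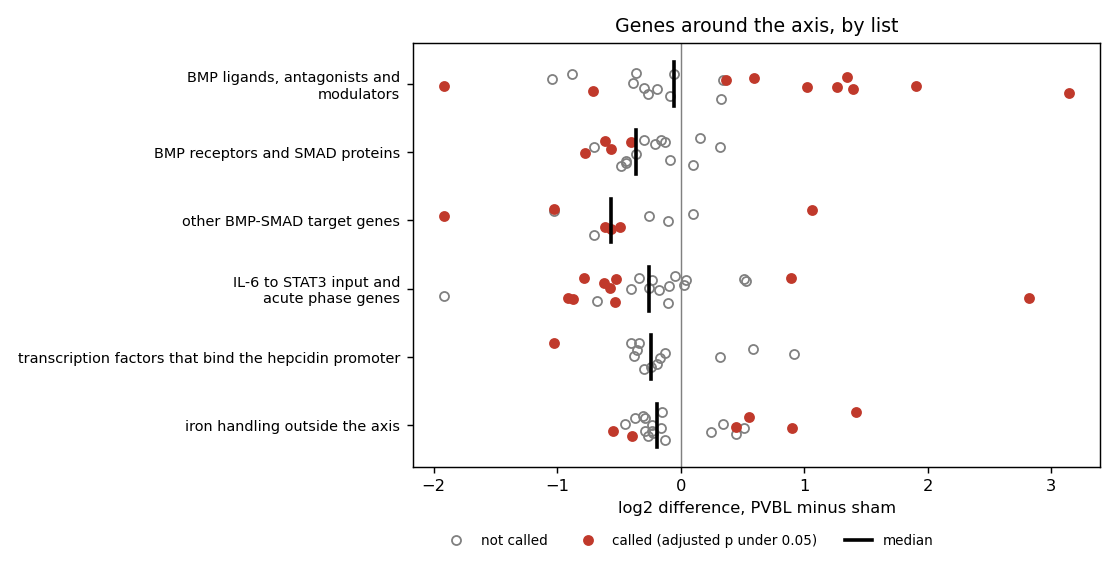
Log2 difference, PVBL minus sham, of the tested genes in the 6 pathway lists (rows); filled red points passed an adjusted p of 0.05 in limma, open grey points did not, and black bars are list medians. The point at 3.14 is Gdf15; with spike-in centring the lists' calls drop to 16.

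Marker genes of liver cell types also differed between the groups, and their part in the values of the axis genes was not tested. Marker levels are summed per list as a description, and the brightest probes weigh most in each sum. The summed level of the 10 hepatocyte markers was 3903 to 4986 in PVBL and 5623 to 6225 in sham, and 3 of the 10 fell, against 17.8% of all genes. Albumin (Alb) did not pass (-0.28, adjusted p = 0.191), and Serpinc1 fell by 0.44 (adjusted p = 0.0402), a call lost without any 1 array (-0.49 to -0.35). The others that fell were Ass1 (-0.76, adjusted p = 0.0132) and F2 (-0.56, adjusted p = 0.0188), for which alternatives were not compared. The 12 markers of sinusoidal endothelium, the source of BMP6, summed to 63.4 to 94.8 in PVBL and 131.7 to 140.2 in sham. Of the 12, 3 fell (25%, against 17.8% of all genes). Of the 2 brightest, Clec4g fell by 1.49 ± 0.29 (adjusted p = 0.0091) and Kdr was at -0.48 (adjusted p = 0.0606), its other probe at -1.18. The list median was -0.57, while Gata4 and Wnt2 had positive differences (0.28 and 0.57, adjusted p = 0.194 and 0.15).

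The 3 tested erythroid markers summed to 14.3 to 27.1 in PVBL and 35.9 to 45.5 in sham. Alas2, the erythroid enzyme of haem synthesis, fell by 1.09 ± 0.24 (adjusted p = 0.014; not called without sham 3 at -0.99 or with spike-in centring at -0.68), and Slc4a1 was at 0.28 (adjusted p = 0.701). Klf1, an erythroid transcription factor gene, also fell. It was the nearest to Hamp by a distance that includes the size of the difference, so its nearness and its fall are not separate results. A link between erythroid cells and hepcidin was not tested. The defining genes Epb42 and Rhag did not pass the background filter.

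The 7 tested Kupffer cell markers summed to 111.7 to 280.8 in PVBL and 143.5 to 162.8 in sham, the highest being PVBL 3. Only 1 of the 7 rose (14.3%, near the 15.1% of all genes), which was Marco (2.52, adjusted p = 0.00373). Cd5l and Csf1r were at -0.11 and -0.51 (adjusted p = 0.845 and 0.143), but without PVBL 3 they were at -0.63 and -0.80 and both were called lower (adjusted p = 0.0236 and 0.00594). The 10 stellate cell markers summed to 112.7 to 134.0 in PVBL and 133.8 to 143.5 in sham. Of the 10, 2 rose and 2 fell (20% each, near the 15.1% and 17.8% of all genes). Col1a1 and Col3a1 rose by 2.21 and 1.46 (adjusted p = 0.0104 and 0.0178), Colec11 fell by 1.07 (adjusted p = 0.00296; -0.65 and not called with spike-in centring), Lrat was the other that fell, and Dcn was at -0.30 (adjusted p = 0.0824). The 5 tested biliary markers summed to 6.86 to 21.3 in PVBL and 1.92 to 4.26 in sham. Of the 5, 3 rose (60%, against 15.1% of all genes) and 1 fell (20%, near the 17.8% of all genes). Spp1 and Krt19 rose by 2.46 and 1.52 (adjusted p = 0.0119 and 0.00529). Krt7, above background on 2 of 3 sham arrays, also rose, and Cftr, above background on 1 of 3 PVBL arrays, fell by 1.17 (adjusted p = 0.0439). Krt7 and Cftr were tested only because the group where they were higher passed the background threshold, so their places in these counts support nothing. Of 7 pancreatic acinar genes, Prss1, Cpa1, Pnlip and Cpb1 did not pass the background filter, Ctrb1 fell by 0.75 (adjusted p = 0.00932; -0.33 and not called with spike-in centring) and Cela1 was at 0.44 (adjusted p = 0.214).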

How the data were processed

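The deposited scanner files give an intensity per spot and, per the file headers, came from Agilent Feature Extraction 10.7.3.1 on array design 028005 (build mm9), with the processed signal already background-corrected; the submitters' processing notes name version 9.1. The deposited value table holds the authors' log2 values, whose rows had been chosen on the group difference. It holds 5 of the 10 axis genes and was an alternative only. Control spots and spots marked as outliers were dropped, replicate spots of 1 probe were averaged, and log2 intensity minus each array's 75th percentile was used. Probes were named by RefSeq accession (26413 of 55681 matched), and coordinates come from RefSeq on GRCm38.p6. The brightest probe stood for a gene. Genes that passed the background threshold on all 3 arrays of either group were tested with limma 3.58.1 in R 4.3.3 (lmFit, eBayes, two-sided, Benjamini-Hochberg over all genes), after a test on simulated data.

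The axis genes and the gene and marker lists were chosen with earlier results of these data known. Of each pathway list, up to 5 called genes with the largest difference were named, and of each marker list the 2 brightest. Some genes that these lists hold are not reported here. Bmp2, Erfe, Id3, Il6, Stat3, Socs3, Slc40a1, Ass1, F2, Gata4, Wnt2, Marco, Col1a1, Col3a1, Lrat, Krt7 and Cftr were named after their values were seen. Where no array of a group passed that threshold the fold is a bound, set against the lowest signal well above background per array. Normexp was run on the median spot signal, as the files used here hold no mean signal. The number of arrays limits the precision. Alternatives covered background correction, scaling, filter, probe choice, array weights, pairing, and each array left out.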

Additional observations from a re-analysis of the deposited data

How the results depend on the processing

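The counts depended on the scaling and on single arrays. The 4475 called genes became 2190 with spike-in centring and 2391 to 4785 with 1 array left out, 2391 without sham 1, 2840 without sham 2 and 2985 without sham 3. Genes called higher ranged from 1322 (without sham 1) to 2220 and genes called lower from 1069 (without sham 1; 1428, 1513 and 1595 without sham 2, sham 3 and PVBL 1) to 2565 with 1 array left out, and genes called lower were 1559 with median centring, 1582 without the filter and 253 with spike-in centring. Of the pathway genes 16 were called with spike-in centring, and 17 (without sham 1) to 43 (without PVBL 3) with 1 array left out, 22 without PVBL 1 and 21 without sham 2. Axis genes wholly below sham numbered 7 to 8 and wholly above sham 1 to 2 with 1 array left out. Leaving out an array cannot make separated groups overlap, so these counts could not fall and do not measure stability. With spike-in centring 2 axis genes were wholly below, and the deposited table, which lacks Id1, gave 0 above. Among axis genes and called genes named here whose alternatives were run, signs turned for Hfe (0.0698) and Ppm1a (0.012) with spike-in centring and for Serpinc1 (0.016) with quantile normalization. Among marker genes not called they also turned for Alb (0.13), Dcn (0.12) and Cd5l (0.30) with spike-in centring, for Alb (0.080) and Cd5l (0.069) with quantile normalization, for Cd5l with median centring (0.018) and without PVBL 1 or PVBL 2 (0.060 and 0.23), and for Slc4a1 with array weights (-0.14) and without PVBL 2 (-0.40). The cause of these shifts was not tested.

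Same-numbered arrays did not pair, with correlations of deviations of 0.166, -0.063 and 0.185, and not every array correlated best with its own number. With the replicate number as a block (replicate block), 3803 genes were called, 28 of them pathway genes. The 7 axis genes wholly below sham were counted from the array values, which the block does not change. Of the values of single axis genes under these alternatives, 145 moved by less than the spread between arrays or not at all, 9 by more, and 1 changed sign. Each axis gene had 1 probe, well above background on all arrays. The filter, probe choice and block settings therefore could not move its difference, and part of the 145 was fixed in advance. The dimmest axis probe, Bmp6, limits what can be read of the ligand.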
